A study of Mus musculus with 6 samples.

Results

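A set of 42 transcription factor genes that direct neural, muscle, heart, gut and other non-epidermal lineages was followed in the epidermis of newborn mice labelled as Eed knockout. The genes were matched by symbol in the deposited count tables, and 42 of 42 were present among the 24453 symbols. In Eed conditional knockout (cKO) epidermis 13 of the 42 had no count in any of 3 libraries, and 10 more were near 0, with a mean under 0.1 CPM (read count scaled to normalised library size). A further 15 were low, at 0.1 to under 1 CPM, and 4 were on, at 1 CPM or more (Sox21, Otx2, En1 and Tlx1). Of all symbols, 23.6% had no count in Eed cKO, 8.94% were near 0, 12.4% low and 55.1% on. Of the 6 genes tested in edgeR, 3 were called higher, Otx2, En1 and Nkx6-1, beside 3.39% of all tested genes. These 3 regulate head, midbrain and ventral neural tube or pancreas identity, and passed the filter on low counts through their Eed cKO counts. Only Otx2 kept its call whichever library was left out. Of the 7 proneural and neuronal basic helix-loop-helix (bHLH) genes 6 had no Eed cKO count and the other had 2, and the muscle determinants Myod1 and Myf5 had none.

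Eed is a core subunit of Polycomb repressive complex 2, which places a repressive methyl mark on histone H3. In stem cells and many tissues the mark lies over the promoters of lineage regulators that the cell does not use, and most of these genes have promoters rich in CpG dinucleotides. Many of the factors followed here are placed high in a lineage hierarchy: Myod1 can turn fibroblasts into muscle, the neurogenins start neuronal differentiation, and Cdx2 sets intestinal identity. A keratinocyte is not known to need most of them.

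RNA came from back skin of mice at postnatal day 0. Interfollicular epidermis was sorted by surface EpCAM, Sca1 and a high level of α6-integrin, a gate that enriches progenitors. The comparison asks which genes change in these cells on loss of Eed, with 3 Control libraries and 3 Eed cKO libraries whose genotype is given as Eed-/-. The sources used here do not give the alleles of the controls, the promoter that drives the deletion, the strain or the animals behind a library, so p-values measure only the spread between libraries, which may be technical.

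Control libraries totalled 25481306 to 29998531 counts, and Eed cKO libraries 20998149 to 27447679. Eed itself was at 41.1 to 53.1 CPM in Control and 29.2 to 37.0 CPM in Eed cKO (edgeR adjusted p 0.252); its partners Ezh2 and Ezh1 had log2 fold changes of -0.69 and -0.05 (edgeR adjusted p 0.12 and 0.951). The deleted exons are not known here, so this count checks the genotype little. Xist was at 8.55 CPM in Eed cKO 2 and at 5300 CPM or more in the other 5 libraries. Ddx3y, a Y-linked gene, had 3020 counts in Eed cKO 2 and 0 to 8 in each of the others, so Eed cKO 2 reads as male and the other 5 libraries as female. The 9 basal keratinocyte markers summed to between 35800 and 42500 CPM in Control and between 30600 and 40300 CPM in Eed cKO, and among them Krt5 lay between 18400 and 25700 CPM in all 6 libraries. Cells of other types were present at low levels: markers of dermal fibroblasts summed to 386 to 649 CPM, of immune cells to 50.8 to 424 CPM, of endothelium to 5.40 to 37.9 CPM, of Schwann cells to 78.6 to 95.0 CPM and of melanocytes to 8.63 to 25.5 CPM. The 7 Merkel cell markers summed to 8.68, 9.39 and 10.6 CPM in Control and to 12.5, 14.2 and 13.5 CPM in Eed cKO, with no overlap, and their part in the results was not tested. Most of the sum was Piezo2, at 7.09 to 10.4 CPM, which was not called (log2 fold change 0.13, edgeR adjusted p 0.92). Among the others Atoh1 had 0 Control counts and 5, 13 and 22 in Eed cKO. Krt18 and Krt20 were also higher in every Eed cKO library, as were 9.56% of all genes with a count. Krt8 overlapped between the groups. Chga had 1, 15 and 1 counts in Control and 4, 3 and 0 in Eed cKO, and Sst had no count in any library. With the filter on low counts edgeR called 1 marker, the keratinocyte gene Epcam (log2 fold change 0.77, adjusted p 0.0433). Without the filter edgeR also called 1 fibroblast and 1 Merkel cell marker higher and 1 immune marker lower, and DESeq2 called 2 Merkel cell markers higher.

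In Control the set was nearly silent: 25 of 42 genes had no count in any Control library (beside 24.8% of all symbols), 11 were near 0 (beside 9.41%), 5 were low (beside 11.9%) and 1 was on (beside 53.9%). Thus 36 of 42 were at 0 or near 0 in Control, beside 34.2% of all symbols, and 23 of 42 in Eed cKO, beside 32.5%. No count in any of the 6 libraries was found for 11 genes, beside 19.6% of all symbols. Leaving aside Sox21, Control libraries 1, 2 and 3 held 45, 33 and 47 counts of these genes in all. Eed cKO libraries 1, 2 and 3 held 557, 410 and 267 counts. Leaving aside Otx2, En1 and Tlx1 as well, the Control libraries held 36, 25 and 44 counts and the Eed cKO libraries 201, 147 and 154. In each library 7 to 13 of the 42 genes had a count in Control, and 19 to 23 in Eed cKO. Of all 24453 symbols 16168 to 16972 had a count in a Control library and 16493 to 17289 in an Eed cKO library. Every Eed cKO library therefore held more counts of these genes, Sox21 aside, than every Control library.

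Of the 36 genes under 0.1 CPM in Control, 1 reached 1 CPM in Eed cKO, which was Otx2 (2.78%). Over all symbols 1.18% of those under 0.1 CPM in Control did so. With a lower bar of 0.1 CPM in Eed cKO the count was 14 of 36 (38.9%), beside 12.1% of all such symbols. Of the 25 genes with no Control count, 14 had a count in some Eed cKO library (56.0%, beside 21.1% of all symbols with no Control count) and 6 in every one (24.0%, beside 2.24%). The 6 were Otx2, Nkx6-1, Sox14, Nkx2-2, Nkx2-5 and En2. In the opposite direction, 13 genes had no Eed cKO count, and 2 of these had a count in Control (15.4%, beside 16.9% of all such symbols). The boundaries of 0.1 and 1 CPM matter here: with 0.05 and 0.5 CPM 5 genes came on (Otx2, Nkx6-1, Sox14, Olig1 and Barx1; 1.89% of all symbols silent by that boundary), and with 0.2 and 2 CPM 3 did (Otx2, En1 and Tlx1; 0.818% of all such symbols). Without Control 1, Control 2 or any single Eed cKO library the count was 2 instead of 1, beside 1.18% to 1.46% of all such symbols.

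**Figure D1:**
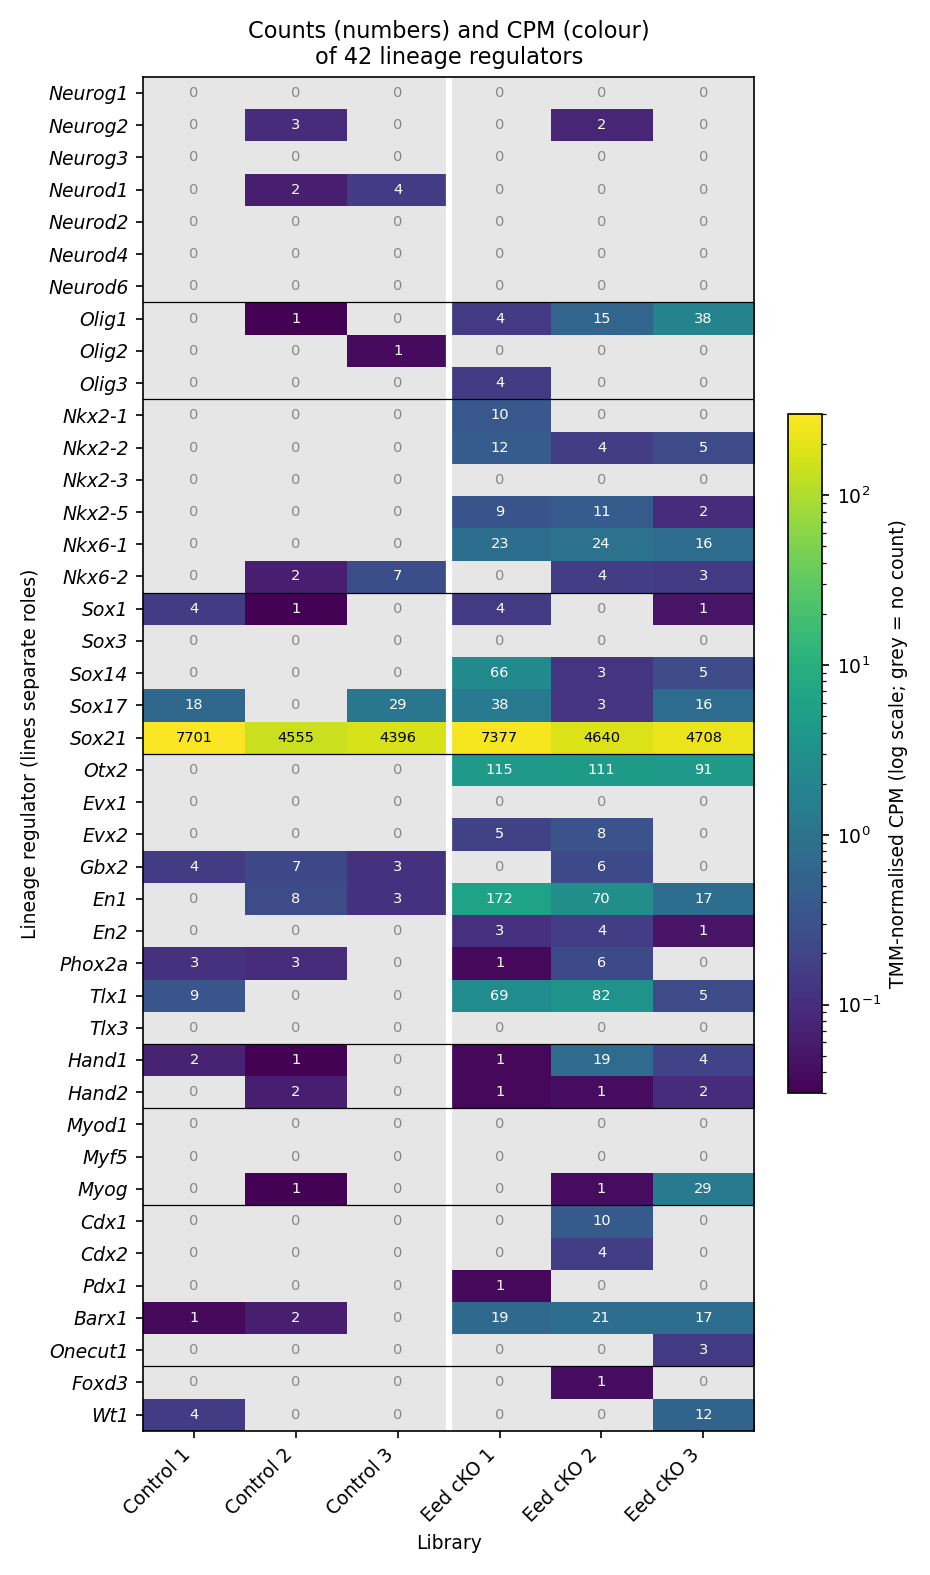
Raw counts (numbers) and TMM-normalised CPM (colour, log scale, grey for no count) of the 42 lineage regulators, 1 row per gene and 1 column per library. Grey fills 11 whole rows, Sox21 is bright in all 6 libraries, and the rows of Otx2 and Nkx6-1 are grey in Control and evenly coloured in Eed cKO.

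The filter on low counts kept 6 of 42 genes (14.3%, beside 60.1% of all symbols): Otx2, En1, Nkx6-1, Barx1, Sox17 and Sox21. In edgeR's quasi-likelihood test with Benjamini-Hochberg adjustment over 14700 genes, 3 of the 6 were called higher in Eed cKO, where 3.39% of all tested genes were. None of the 6 was called lower in edgeR, where 0.816% of all tested genes were, and 0 were lower at an unadjusted p under 0.05, in DESeq2 or in limma-voom. Otx2, En1, Nkx6-1 and Barx1 passed the filter through their Eed cKO counts, so the share called among the 6 is a description of these genes and supports nothing further. The median log2 fold change of the 6 was 4.48, against -0.01 over all genes tested. Without a count filter the fit took all 19662 genes with a count, 31 of the 42 among them. There edgeR called 6 of the 31 higher, adding Olig1, Sox14 and Tlx1, and 737 of the 19662. DESeq2, fitted on the same genes, called 7 of the 31, adding Barx1 as well, and 814 of the 19662. Its own filter left some of these genes without an adjusted p.

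A measure that needs no filter is whether the lowest Eed cKO library lay above the highest Control library. Of the 31 genes with a count in any library 9 met it (29.0%), beside 9.56% of all genes with a count. These were Otx2, En1, Nkx6-1, Barx1, Sox14, Olig1, Nkx2-2, Nkx2-5 and En2. The reverse order was met by 0 of the 31 genes, beside 7.47% of all genes with a count. More cells with a transcript and more of it per cell cannot be told apart in these bulk libraries.

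Otx2, a homeodomain factor of forebrain and midbrain, gave the cleanest change. It had 0 counts in each Control library and 115, 111 and 91 counts in Eed cKO 1, 2 and 3, or 4.19, 4.46 and 4.40 CPM. The 3 Eed cKO libraries lay close together and far above Control. The mean in Eed cKO was 4.35 ± 0.141 CPM (SD, n = 3). In counts pooled over each group Otx2 was at least 121-fold higher in Eed cKO, with Control set to a floor of 3 counts. On the log2 scale the fitted difference was 9.83 with an SE of 1.10 (edgeR adjusted p 0.000286), and the gene was called in every setting tried. Otx2 lies at chr14:48657677-48673819 (GRCm38, minus strand), and 168 of its exonic bases are shared with Otx2os1 on the opposite strand or with Gm49154, so part of its count could belong to these.

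En1 (chr1:120602418-120607992), which sets the midbrain-hindbrain territory and the ventral side of the limb, rose with a wide spread. Its counts were 0, 8 and 3 in Control 1, 2 and 3 and 172, 70 and 17 in Eed cKO 1, 2 and 3. The groups did not overlap, but Eed cKO 1 held 66.4% of the Eed cKO counts. En1 averaged 0.124 ± 0.128 CPM in Control against 3.30 ± 2.75 CPM in Eed cKO (SD, n = 3 each). The fitted difference on the log2 scale was 4.65 ± 1.06 (SE, edgeR adjusted p 0.0232). In edgeR the En1 call was lost on leaving out Control 3 (adjusted p 0.0807), Eed cKO 1 (0.129) or Eed cKO 2 (0.069), as it was in limma-voom (0.112), and the log2 fold change was 3.79 without Eed cKO 1 and 5.73 without Control 2. Its relative En2 had no Control count and 3, 4 and 1 counts in Eed cKO, a level at the edge of detection.

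The other homeodomain factors of the nervous system differed among themselves. Tlx1, a factor of spleen and sensory relay neurons, had 9, 0 and 0 counts in Control and 69, 82 and 5 in Eed cKO. The value in Eed cKO 3, 0.242 CPM, lay below that in Control 1, 0.337 CPM, so the groups overlapped, and the gene did not pass the filter. The pooled ratio was 19.9 (95% counting interval 10.2 to 44.2). Its relative Tlx3, a selector of excitatory sensory neurons, had no count in any library. Evx2 had 0 counts in Control and 5, 8 and 0 in Eed cKO, and Evx1, a spinal interneuron factor, had none in any library. Gbx2, a hindbrain factor, and Phox2a, a factor of noradrenergic neurons, had 14 and 6 counts in Control and 6 and 7 in Eed cKO. Gbx2 overlaps the antisense D130058E05Rik over 946 exonic bases, so its few counts are uncertain.

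Nkx6-1 (chr5:101658139-101664996), a homeodomain factor of ventral spinal cord and pancreatic beta cells, led the Nkx genes. It had 0 counts in each Control library and 23, 24 and 16 in Eed cKO, or 0.838, 0.963 and 0.775 CPM. The Eed cKO libraries lay close together, with no overlap with Control. The mean was 0.859 ± 0.0961 CPM (SD, n = 3), and in pooled counts Nkx6-1 was at least 24.1-fold higher in Eed cKO. On the log2 scale the difference was 7.50 with an SE of 1.6, and it passed (edgeR adjusted p 0.0202). The Nkx6-1 call was lost in each of the 6 fits that leave out 1 library (edgeR adjusted p 0.0524 to 0.0907), with a log2 fold change of 7.42 to 7.62 in them.

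Nkx2-2, of ventral neural tube and endocrine pancreas, had 0 Control counts and 12, 4 and 5 in Eed cKO, at least 8.02-fold higher in pooled counts. It shares 278 exonic bases with Nkx2-2os on the opposite strand. Nkx2-5, the cardiac homeodomain factor, had 0 Control counts and 9, 11 and 2 in Eed cKO, at least 8.40-fold higher in pooled counts. Both genes had a count in every Eed cKO library and did not pass the filter. Neither was called without the filter (edgeR adjusted p 0.183 for Nkx2-2 and 0.176 for Nkx2-5) or in DESeq2 (0.232 and 0.224). Nkx2-1, of thyroid, lung and forebrain, had 10 counts, all in Eed cKO 1. Nkx6-2 had 9 counts in Control and 7 in Eed cKO, and Nkx2-3, a gut mesoderm and spleen factor, had none in any library.

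**Figure D2:**
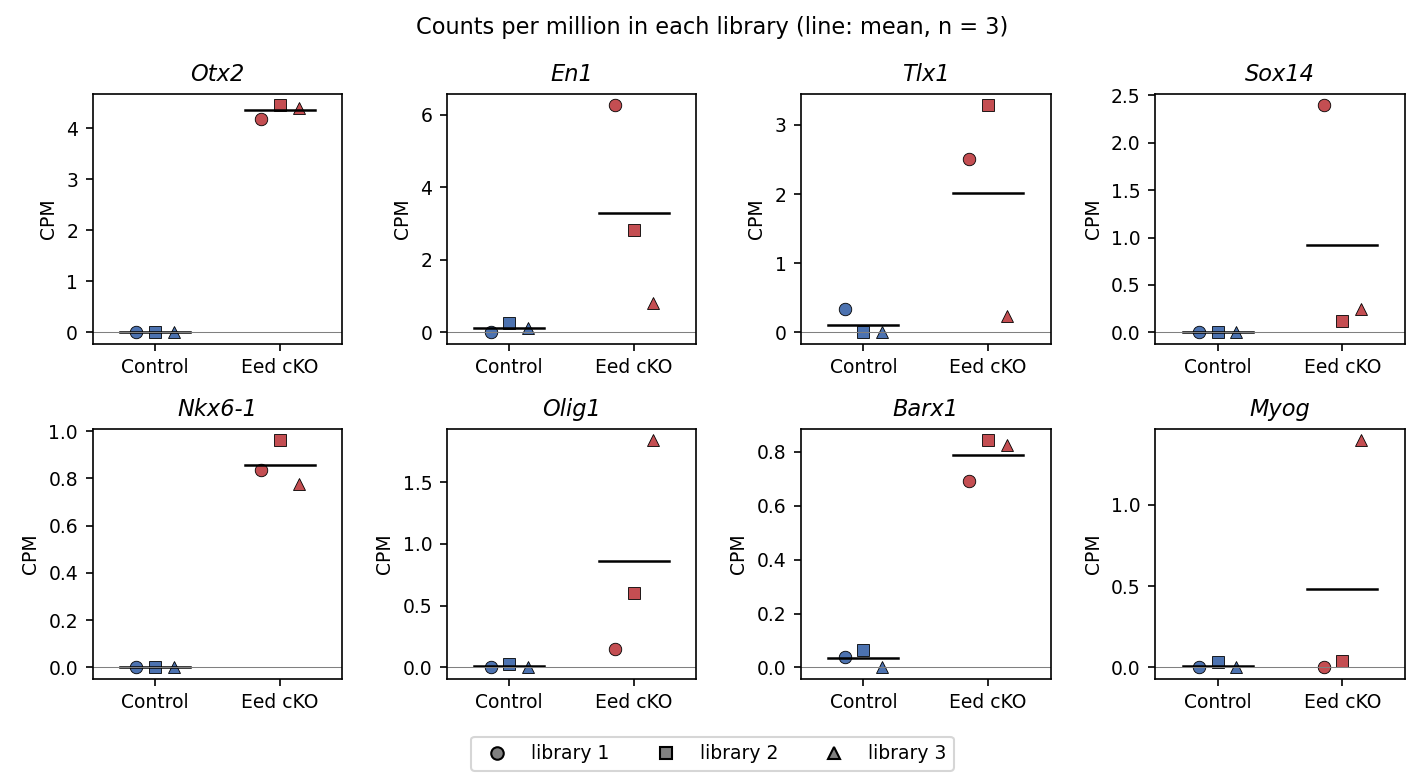
CPM of 8 lineage regulators in each library (symbols mark library 1, 2 and 3 of a group, lines the mean of 3). Otx2, Nkx6-1 and Barx1 sit close together in Eed cKO and above Control, whereas En1, Tlx1, Sox14, Olig1 and Myog are spread between the Eed cKO libraries.

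Among the Olig genes, bHLH factors of the oligodendrocyte lineage and spinal cord progenitors, Olig1 alone had more than 4 counts in Eed cKO. Olig1 had 0, 1 and 0 counts in Control and 4, 15 and 38 in Eed cKO, a pooled ratio of 65.3 (95% counting interval 11.3 to 2620). All 3 Eed cKO libraries were above Control, but they ranged from 0.146 to 1.84 CPM. Antisense Gm15966 overlaps 157 of its exonic bases. Olig2, whose start lies 44.3 kb away on the same chromosome and which acts at the head of the same lineage, had 1 Control count and 0 Eed cKO counts. Olig3 had 4 counts, all in Eed cKO 1. Of the 7 oligodendrocyte effector genes followed, 3 (Mag, Mobp and Opalin) had no count in any library. Mog had 1 count, in Eed cKO 3, and Ugt8a had 6 and 2 counts in Eed cKO 2 and 3, while Mbp and Cnp, which are expressed here, had log2 fold changes of 0.20 and 0.22 (edgeR adjusted p 0.808 and 0.909).

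The 7 neuronal bHLH genes were at 0 or near 0 in Eed cKO. Neurog1, Neurog3, Neurod2, Neurod4 and Neurod6 had no count in any library. Neurog2 had 3 counts in Control 2 and 2 in Eed cKO 2, and Neurod1 had 6 in Control and 0 in Eed cKO. All 7 genes together gave 9 counts in Control and 2 in Eed cKO. A count of 0 over the 3 Eed cKO libraries allows a level of up to 0.0411 CPM, taken as 3 counts and covering counting error only. These genes start or carry forward neuronal differentiation in brain, sensory ganglia and, for Neurog3, the endocrine pancreas.

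The Sox genes included the exception to silence. Sox21, a neural factor that is also known from hair follicle, had 7701, 4555 and 4396 counts in Control and 7377, 4640 and 4708 in Eed cKO, or 202 ± 75.9 and 228 ± 41.3 CPM (SD, n = 3 each). The groups overlapped, and the log2 fold change was 0.17 (95% interval -0.33 to 0.67; edgeR adjusted p 0.828). Sox21 therefore does not meet the description of a factor foreign to epidermis in these cells. Antisense Gm4675 overlaps 713 of its exonic bases.

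Sox14, a factor of spinal and midbrain interneurons, had 0 counts in Control and 66, 3 and 5 in Eed cKO. All 3 Eed cKO libraries were above Control, with 89.2% of the counts in Eed cKO 1. In pooled counts it was at least 28.3-fold higher in Eed cKO. Sox1, an early neural plate factor, had 5 counts in each group, and Sox3, of neural progenitors, had none in any library.

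Sox17, a factor of endoderm and of arterial endothelium, had 18, 0 and 29 counts in Control and 38, 3 and 16 in Eed cKO. The groups overlapped (log2 fold change 0.35, 95% interval -2.26 to 2.95; edgeR adjusted p 0.95). The 7 endothelial markers summed to 35.5, 5.40 and 37.9 CPM in Control 1, 2 and 3 and to 36, 7.43 and 9.44 CPM in Eed cKO 1, 2 and 3. The libraries with the fewest Sox17 counts, Control 2 and Eed cKO 2, were also those with the least endothelial signal. Eed cKO 3 did not follow: with a sum of 9.44 CPM it had Sox17 at 0.775 CPM. Control 1, with a sum of 35.5 CPM, had Sox17 at 0.673 CPM. The part of these cells in the Sox17 counts was not tested. Antisense Gm37587 overlaps 804 of its exonic bases. The sign of the Sox17 difference turned without Control 2 or Eed cKO 1.

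**Figure D3:**
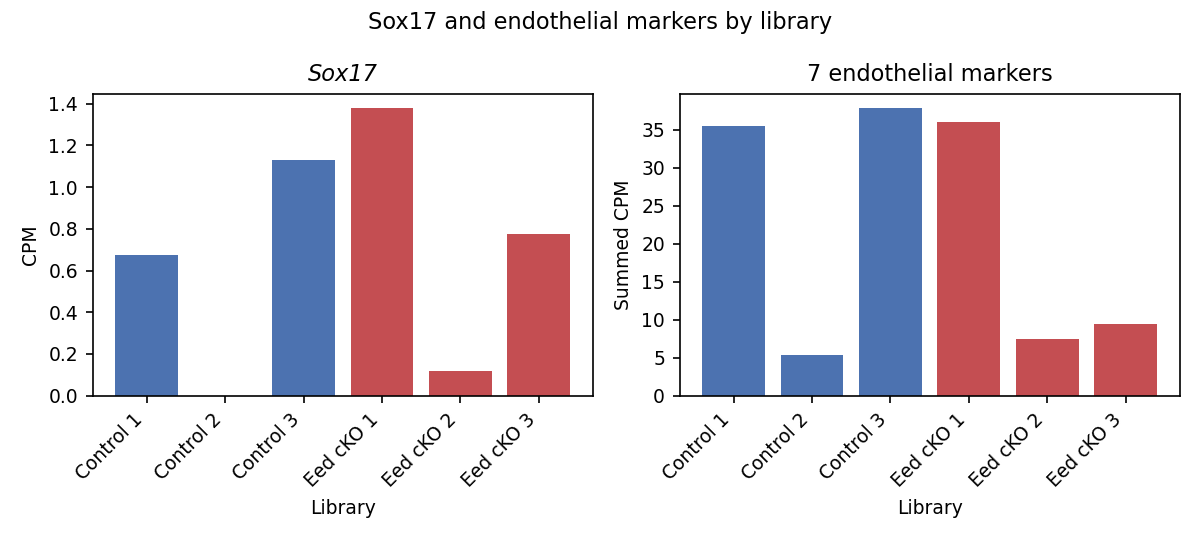
Sox17 in CPM (left) and the summed CPM of 7 endothelial markers (right) in each of the 6 libraries, Control in blue and Eed cKO in red. Both are lowest in Control 2 and Eed cKO 2, and neither separates the groups.

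Myogenic bHLH factors commit cells to skeletal muscle. Myod1 and Myf5, the determination factors, had no count in any library, and neither did Myf6, the nearest protein-coding gene to Myf5. Myog, the differentiation factor downstream of them, had 0, 1 and 0 counts in Control and 0, 1 and 29 in Eed cKO. A single library, Eed cKO 3, held 96.7% of its Eed cKO counts. In that library the 21 skeletal muscle effector genes summed to 24.2 CPM, the lowest of the 6 libraries, against 28.1 to 32.9 CPM in the other 5. The sum was mostly Ttn, Neb, Tnni2 and Myom1, which had counts in every library. Other members went the other way: Actc1 at 2.13 CPM, Des at 0.871 CPM and Ckm at 0.145 CPM were each highest in Eed cKO 3.

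Hand1 and Hand2 are bHLH factors of heart, limb and neural crest. Hand1 had 2, 1 and 0 counts in Control and 1, 19 and 4 in Eed cKO. The value in Eed cKO 1, 0.0364 CPM, lay under the highest in Control, 0.0748 CPM, so the groups overlapped, and the pooled ratio was 9.16 (95% counting interval 2.78 to 47.5). Hand2 had 2 counts in Control and 4 in Eed cKO. It shares 461 exonic bases with Hand2os1.

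Of the gut, pancreas and liver factors, Barx1 alone was seen in every Eed cKO library. Barx1, a factor of stomach mesenchyme and of craniofacial structures, had 1, 2 and 0 counts in Control and 19, 21 and 17 in Eed cKO. Barx1 averaged 0.0338 ± 0.0321 CPM in Control against 0.786 ± 0.0818 CPM in Eed cKO (SD, n = 3 each), with no overlap. The log2 fold change was 4.31 ± 1.21, which did not pass (edgeR adjusted p 0.0662), though it did in DESeq2 (adjusted p 0.0366). The intestinal factors Cdx1 and Cdx2 had 10 and 4 counts, all in Eed cKO 2. Pdx1, the pancreas and duodenum factor, had 1 count, in Eed cKO 1, and the liver and pancreas factor Onecut1 had 3, in Eed cKO 3.

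Foxd3, a neural crest factor, had 1 count, in Eed cKO 2. Wt1, a factor of kidney and mesothelium, had 4 counts in Control 1 and 12 in Eed cKO 3. The Wt1 counts came from 1 library of each group. The 3 mesothelial markers summed to 0.145 CPM in Eed cKO 3 and to 0.299 CPM in Control 1. They were highest in Control 2, at 0.543 CPM, where Wt1 had no count. These sums rest on few counts, and the part of mesothelial cells in the Wt1 counts was not tested.

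Counts in Eed cKO were even between libraries for some genes and scattered for others. Of the 29 genes with an Eed cKO count, 14 were seen in all 3 libraries, 5 in 2 and 10 in 1. The same split over all symbols was not made. A count in all 3 libraries did not mean an even level: Sox14 had 89.2% and Hand1 79.2% of the Eed cKO counts in 1 library. The library with the highest count was Eed cKO 1 for 10 genes, Eed cKO 2 for 14 and Eed cKO 3 for 5, so the spread does not follow a single library. The RNA was amplified before library construction, so a run of counts in 1 library need not come from as many molecules. The part of amplification in genes seen in 1 library was not tested.

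Ordered by mean Eed cKO level per kilobase of exon, Sox21 stood far apart at 59.9 CPM per kb. En1 followed at 1.26, Otx2 at 1.03 and Tlx1 at 0.942 CPM per kb, then Barx1 at 0.562, Sox14 at 0.447, Olig1 at 0.399, Myog at 0.322 and Nkx6-1 at 0.274 CPM per kb. The libraries of Otx2, Barx1 and Nkx6-1 varied little and kept that order per kb without overlap. En1, Tlx1, Sox14, Olig1 and Myog were spread between libraries, and their places are not resolved.

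**Figure D4:**
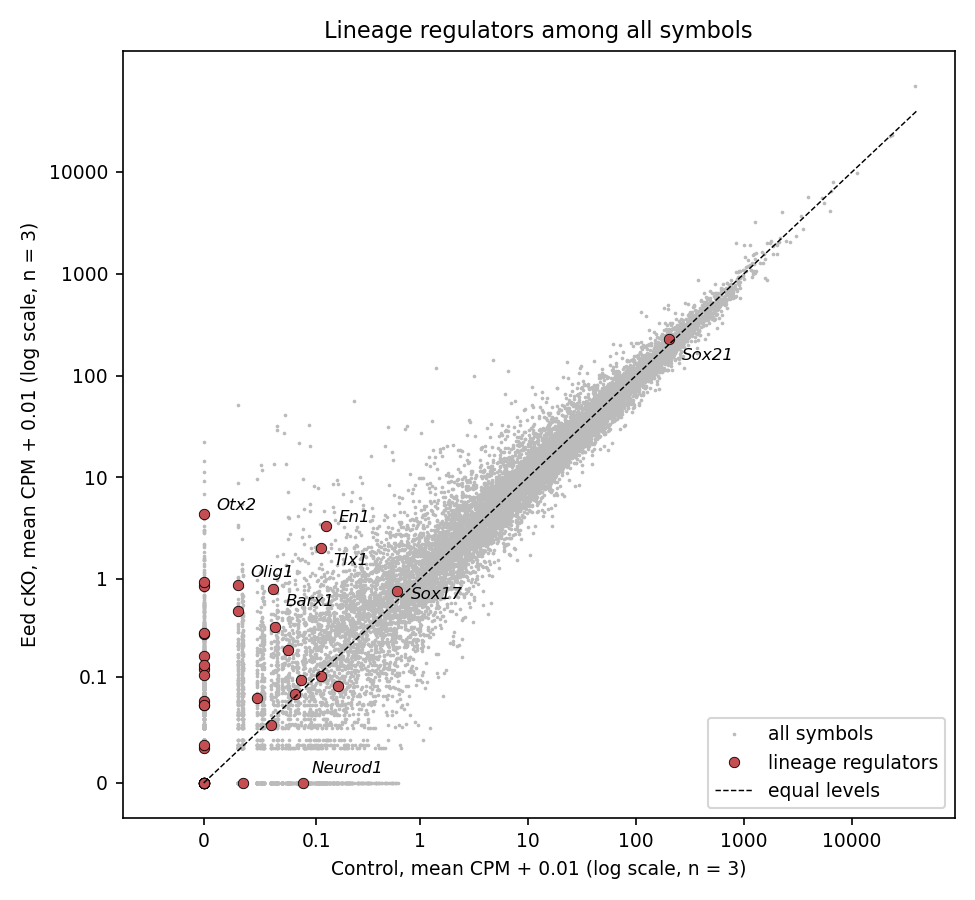
Mean CPM plus 0.01 in Control (x axis) and Eed cKO (y axis), both on log scales with 3 libraries each, for all 24453 symbols (grey) and the 42 lineage regulators (red). Sox21 and Sox17 lie near the line of equal levels, while Otx2, En1 and Tlx1 lie above it at 2.02 to 4.35 CPM in Eed cKO.

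Some nearest protein-coding neighbours of low members of the set were not low, and those given here were picked after their values were seen. Hoxd13 starts 8.8 kb from Evx2 and rose from 2 counts in Control to 946 in Eed cKO (log2 fold change 8.84, edgeR adjusted p 1.70e-06), while Evx2 reached 13 counts. Hoxa13, 52.6 kb from Evx1, went from 0 to 203 counts (edgeR adjusted p 0.00338), while Evx1 had none. Nkx2-9, 76.4 kb from Nkx2-1, went from 0 to 176 counts (edgeR adjusted p 0.0152), while Nkx2-1 had 10. In these 3 pairs the neighbour passed the test and the lineage regulator did not pass the filter. Alpk1, 147.4 kb from Neurog2, was also called higher, from 301 to 922 counts (log2 fold change 1.78, edgeR adjusted p 0.0262). Neurog2 had 3 counts in Control and 2 in Eed cKO. None of the other tested neighbours, on either side of a lineage regulator, was called. Of all tested genes 3.39% were called higher in edgeR, and the share among neighbours was not compared with it.

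Promoters were compared next, since CpG-rich promoters are the usual sites of Polycomb repression. RefSeq starts on GRCm38.p6 were available for 34 of the 42 genes. For each the CpG dinucleotides in the 250 bases before the start were counted, taking the start with the most where a gene had several. The median was 14.5 for the 34 genes and 6 for all 27025 symbols of the table, and 73.5% of the 34 had at least 10 CpGs, beside 40.2% of all. Among the lineage regulators the count did not separate genes by level: the median was 13 (range 3 to 29) for the 11 with no Eed cKO count and 19.0 (8 to 40) for the 7 whose Eed cKO libraries were all above Control, ranges that overlap. At least 10 CpGs were found in 72.7% and 71.4% of these.

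Sequences of 5 windows are shown, CpG-poor and CpG-rich ones of genes with and without counts in Eed cKO. They do not span the whole range, and the richest, of Barx1 with 40 CpGs, is not shown. Each is the 250 bases before a RefSeq start, written 5′ to 3′ on the strand of the gene, with each CpG in capitals, and none overlaps an exon of GENCODE M21. All 5 genes lie on the minus strand: Otx2 chr14:48667645-48667894 (1 of 4 starts), Sox14 chr9:99876171-99876420, Neurog1 chr13:56252181-56252430, Myf5 chr10:107486135-107486384 and Neurod6 chr6:55681264-55681513.
Otx2: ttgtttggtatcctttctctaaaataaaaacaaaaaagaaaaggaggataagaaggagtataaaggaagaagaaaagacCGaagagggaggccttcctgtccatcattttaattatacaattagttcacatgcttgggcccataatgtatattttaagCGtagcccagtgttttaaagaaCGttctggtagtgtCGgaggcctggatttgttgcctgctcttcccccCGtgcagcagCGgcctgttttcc
Sox14: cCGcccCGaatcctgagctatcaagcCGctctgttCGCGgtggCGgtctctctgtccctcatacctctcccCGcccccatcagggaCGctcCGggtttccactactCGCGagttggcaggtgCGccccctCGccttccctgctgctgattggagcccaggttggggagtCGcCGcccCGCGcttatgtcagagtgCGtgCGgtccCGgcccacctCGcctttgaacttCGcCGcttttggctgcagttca
Neurog1: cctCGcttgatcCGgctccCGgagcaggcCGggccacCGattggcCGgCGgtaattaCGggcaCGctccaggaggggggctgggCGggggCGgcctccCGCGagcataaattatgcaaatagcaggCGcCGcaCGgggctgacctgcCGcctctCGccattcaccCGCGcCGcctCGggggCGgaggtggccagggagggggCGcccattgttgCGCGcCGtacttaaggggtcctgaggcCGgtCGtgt
Myf5: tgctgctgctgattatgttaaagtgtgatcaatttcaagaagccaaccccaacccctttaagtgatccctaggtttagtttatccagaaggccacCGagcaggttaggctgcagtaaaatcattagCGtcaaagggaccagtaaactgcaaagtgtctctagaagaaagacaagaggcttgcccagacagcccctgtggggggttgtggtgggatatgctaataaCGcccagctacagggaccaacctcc
Neurod6: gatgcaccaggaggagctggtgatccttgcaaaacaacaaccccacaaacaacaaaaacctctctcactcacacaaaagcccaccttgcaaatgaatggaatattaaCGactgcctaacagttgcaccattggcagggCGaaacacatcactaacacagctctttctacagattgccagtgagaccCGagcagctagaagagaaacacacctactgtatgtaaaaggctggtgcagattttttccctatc
The window of Otx2, which rose to 4.35 CPM, holds 6 CpGs, the fewest of its 4 starts. The comparison above used the start with 14, so Otx2 is CpG-poor only at the start shown. The window of Sox14, with 74 Eed cKO counts, holds 23. Neurog1 had no count with 29 CpGs in its window, and Myf5 and Neurod6 had none with 3 each.

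**Figure D5:**
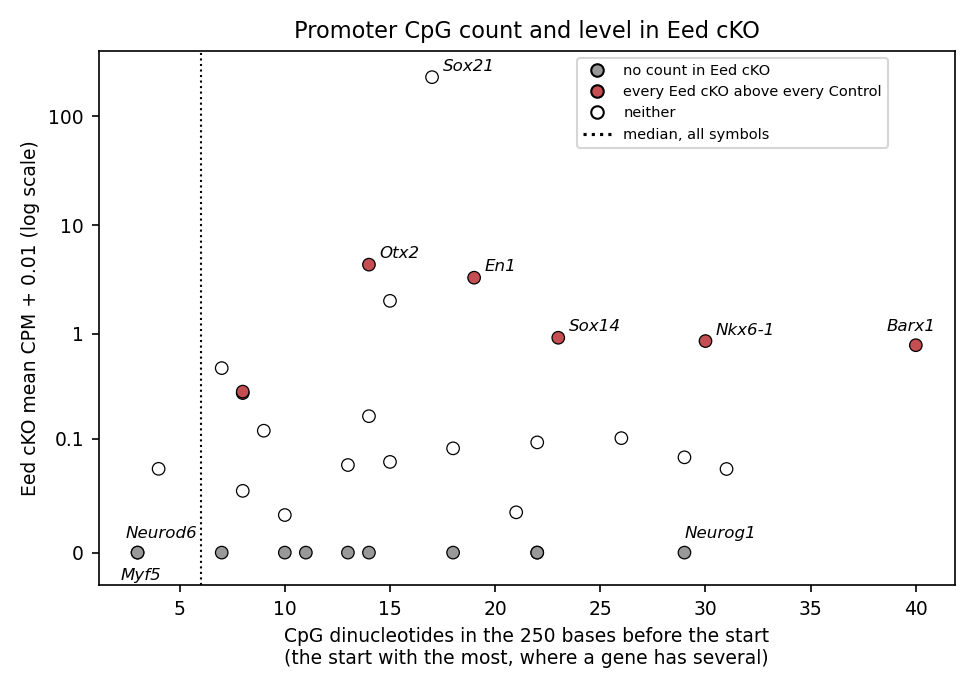
CpG dinucleotides in the 250 bases before the start (x axis) and mean Eed cKO CPM plus 0.01 (y axis, log scale) for the 34 lineage regulators with a RefSeq start, the dotted line marking the median of 6 over all symbols. Genes with no Eed cKO count (grey) run from 3 to 29 CpGs and those above Control in every Eed cKO library (red) from 8 to 40, with a wide overlap.

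Other regulators of the same lineages were read from separate lists. Of 51 further neural regulators 12 were tested, of which 6 rose and 0 fell in edgeR (at an unadjusted p under 0.05, 8 and 0; in DESeq2, 9 and 0; in limma-voom, 7 and 0), and the median log2 fold change of the tested genes was 4.75. Of all tested genes 3.39% were called higher and 0.816% lower in edgeR. Of the 41 neural regulators under 0.1 CPM in Control 5 reached 1 CPM (12.2%, beside 1.18% of all such symbols). Emx2, a cortical factor, rose to 8.70 ± 1.19 CPM over a Control level of 0.147 ± 0.122 (edgeR adjusted p 7.91e-05). Pax6, of eye, rose to 8.83 ± 5.28 CPM over 0.283 ± 0.242 (edgeR adjusted p 0.00146; SD, n = 3 each). Emx2 and Pax6 were each higher in 3 of 3 Eed cKO libraries than in any Control library, and each kept its call whichever library was left out. The lists were drawn up with earlier results of these data known, and the difference between them and the 42 genes was not tested.

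Of 24 further muscle and heart regulators 13 were tested, of which 6 rose and 1 fell in edgeR, with a median log2 fold change of 3.33. At an unadjusted p under 0.05 the numbers were 7 and 1, in DESeq2 6 and 1 and in limma-voom 5 and 1. Of the 15 under 0.1 CPM in Control 5 reached 1 CPM (33.3%, beside 1.18% of all such symbols). Pax3, of muscle progenitors and neural crest, rose to 16.1 ± 2.67 CPM over a Control level of 0.341 ± 0.352 (edgeR adjusted p 0.000274; SD, n = 3 each). Tbx5, of forelimb and heart, had 0 Control counts and rose to 312, 156 and 207 counts in Eed cKO 1, 2 and 3 (edgeR adjusted p 2.29e-05). Irx4, a ventricle factor picked here as the gene that fell, was at 248 ± 17.2 CPM in Control and 133 ± 22.0 CPM in Eed cKO (edgeR adjusted p 0.00677). Of 25 further gut, pancreas and liver regulators 11 were tested, of which 7 rose and 0 fell in edgeR, with a median log2 fold change of 4.62. At an unadjusted p under 0.05 the numbers were 8 and 0, and in DESeq2 and in limma-voom 7 and 0. Of the 17 under 0.1 CPM in Control 3 reached 1 CPM (17.6%, beside 1.18% of all such symbols). The endoderm and heart factors Gata4 and Gata6 rose to 29.5 ± 10.0 and 22.0 ± 7.55 CPM over 0.038 ± 0.0374 and 0.0657 ± 0.0836 CPM (edgeR adjusted p 2.43e-07 and 2.29e-06; SD, n = 3 each). Pax3, Tbx5, Gata4 and Gata6 kept their calls whichever library was left out. In the lists of further regulators the genes kept by the filter favour those that came on. Pou3f4, Tbx5, Isl1 and Foxa1, for example, had 0 Control counts and passed through their Eed cKO counts. The numbers called and the medians are therefore descriptions and support nothing further.

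Genes used by the differentiated cells were read last. Beside the numbers called in these lists, 3.39% of all tested genes were higher and 0.816% lower in edgeR. Of 23 neuronal effector genes 11 were tested, 1 rose and 0 fell in edgeR (at an unadjusted p under 0.05, 2 and 0; DESeq2, 2 and 0; limma-voom, 0 and 0). The gene was Rbfox3, a neuronal splicing factor, with 0, 4 and 1 counts in Control and 74, 33 and 11 in Eed cKO (4.61 ± 1.18 on the log2 scale, SE, edgeR adjusted p 0.0419). Leaving out any single library ended that call (edgeR adjusted p up to 0.17), as did limma-voom. The early neuronal tubulin Tubb3 had 4, 38 and 0 counts in Control and 41, 14 and 81 in Eed cKO, which overlap. Of the 23 genes, 2 of which had no count in any library, only Rbfox3, Ina and Snap25 were higher in every Eed cKO library. Over all genes with a count 9.56% were, so this is no result about neuronal genes. Ina and Snap25 were not called in edgeR (adjusted p 0.0834 and 0.436). Ina had 1, 3 and 0 counts in Control and 32, 22 and 10 in Eed cKO. Snap25 had 10, 12 and 1 counts in Control and 27, 15 and 27 in Eed cKO. The reverse order was not seen in this list, beside 7.47% of all genes with a count.

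Of 21 skeletal muscle effector genes 10 were tested and 0 were called in edgeR, DESeq2 or limma-voom, with 0 higher and 1 lower at an unadjusted p under 0.05 and a median log2 fold change of -0.08. Of 22 gut, pancreas and liver effector genes 6 were tested and 1 rose, the sodium-glucose transporter gene Slc5a1, from 0.679 ± 0.705 to 6.34 ± 1.45 CPM (SD, n = 3 each; edgeR adjusted p 0.0201). Slc5a1 no longer passed once Control 1, Eed cKO 2 or Eed cKO 3 was left out (edgeR adjusted p up to 0.1). Of the 22 genes 9 had no count in any library, among them hepatic Alb and Afp, pancreatic Gcg and intestinal Sis. Others, such as Vil1, Lgals4, Muc2 and Guca2a, had counts in every library. Guca2a lay at 0.411, 0.224 and 0.234 CPM in Control and at 0.765, 0.602 and 1.5 CPM in Eed cKO (edgeR adjusted p 0.428). Apoa1 went the other way, with 22, 10 and 10 counts in Control and 5, 1 and 1 in Eed cKO. Fabp2 had 27 counts, all in Eed cKO 1. Of 7 oligodendrocyte effector genes 2 were tested and 0 were called in edgeR, DESeq2 or limma-voom, with 0 at an unadjusted p under 0.05.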

How the data were processed

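The authors deposited 1 table of raw counts by symbol for each library, with no normalization. Per the labels' protocols, RNA of sorted cells went through cDNA amplification, and single-end reads were taken. Per the submitters' processing notes, the tools were TopHat2 2.0.13, Cufflinks 2.2.1, HTSeq 0.6.1 and DESeq2 1.6.3 with the build mm10. The sources used here do not give the annotation or strand setting, so overlapping genes have uncertain counts.

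Counts were fitted in R 4.3.3 with edgeR 4.0.16 on all 6 libraries with genotype alone: filterByExpr kept 14700 genes, TMM scaled them, and a quasi-likelihood F-test was adjusted by Benjamini-Hochberg at 0.05. Higher in Eed cKO were 499 genes and lower 120. SE is the log2 fold change over the root of F. CPM values use the TMM sizes. Folds against a Control group at 0 set its pooled count to 3 (0.0359 CPM), and ratios use pooled counts with exact 95% intervals. Intervals and floors cover counting error only. Between libraries of a group the chi-square per degree of freedom was 48.4 or more, so no library was a copy.

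The 42 genes and the lists were chosen with earlier results of these data known. The text names all 42, up to 3 called genes of each further list with the smallest p-values (some are not reported here), marker lists by their sums, and a few genes picked after their values were seen. These are Tubb3, the neighbours, Irx4, Epcam, Krt5, Xist, Ddx3y, Merkel cell markers and effector genes. Alternatives were RLE and upper-quartile scaling, other filters, DESeq2 1.42.0, limma-voom (limma 3.58.1), a replicate block, other CPM boundaries, thinning and leaving out each library. The edgeR step was first tested on simulated counts with known changes. Exonic overlaps and distances came from GENCODE M21 on GRCm38, the assembly of mm10.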

Additional observations from a re-analysis of the deposited data

How the results depend on the processing

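Between RLE scaling, upper-quartile scaling, limma-voom and the replicate block, the number of lineage regulators called higher stayed at 2 to 3. It was 6 with no filter on low counts, 1 with at least 1 CPM in 3 libraries and 7 in DESeq2, and it ranged from 1 to 3 when 1 library was left out, with 1 without Control 3 or Eed cKO 2. Over all genes the higher calls were 814 in DESeq2 and 302 to 456 with 1 library left out (323 without Control 3 and 302 without Eed cKO 3). The lower calls were 257 without a filter, 273 in DESeq2, 269 with the replicate block and 35 to 118 with 1 library left out. Otx2 was called in all 13 alternatives.

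With boundaries of 0.05 and 0.5 CPM, 5 lineage regulators were near 0 and 9 were on in Eed cKO, and 5 came on. With 0.2 and 2 CPM, 16 were near 0, 9 were low and 3 came on. With 1 library left out, 6 to 10 were near 0, 9 to 15 low and 1 to 2 came on. The sign of Sox17 turned without Control 2 (log2 fold change -0.23) and without Eed cKO 1 (-0.43), with no call either way, and its range with 1 library left out was -0.43 to 1.18. Libraries of the same number shared only a number: their deviations correlated at 0.23, 0.11 and 0.00 for numbers 1, 2 and 3. The replicate block kept 3 lineage regulators higher. A count of 0 over the Eed cKO group still allows a level of up to 0.0411 CPM.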
